A study of Mus musculus with 14 samples.

Results

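The genes described here define T lymphocytes or carry the signal of the T cell antigen receptor. A list of 33 such genes was used, and a gene was taken when the platform annotation gave a probe set its symbol and no other. This held for 30 of the 33, among 22180 genes measured in the same way. Cd247, Lck and Tcf7 were not analysed here. Gata3 was the mean of 2 probe sets, and each of the other 29 members came from 1 probe set.

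RNA was measured on biotin-labelled arrays in 2 tissues of male mice aged 12 weeks, all of which had eaten a high-fat, high-cholesterol diet for the last 4 weeks. The aorta and its perivascular fat were taken from 4 mice that were ApoE/LTbR double-deficient, lacking apolipoprotein E together with the receptor for lymphotoxin beta, and from 4 ApoE-deficient littermates that had this receptor. Cells bearing CD115, which blood monocytes carry as their receptor for colony-stimulating factor 1, were drawn from blood with magnetic beads, giving 3 preparations of each genotype. The double-deficient preparations were numbered 1, 2 and 3 and the ApoE-deficient ones 1, 3 and 4. ApoE-deficient preparations 3 and 4 each came from a pool of 2 littermate samples, and the other 12 arrays each from a single sample. Every mouse lacked apolipoprotein E, so the groups compared differ in LTbR on that background, no array comes from a mouse with apolipoprotein E, and the label WT in the sample titles means ApoE-deficient. The labels restrict neither deficiency to a cell type.

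The deposited values are log values, read here as log2, centred so that each probe set has a median of 0 over the 8 aorta arrays and again over the 6 CD115+ arrays. A value is therefore a distance from the gene's own middle in that tissue. It gives no level, so genes cannot be ranked by abundance, the tissues cannot be set against each other in level, and neither the label of the sorted cells nor that of the aorta can be checked by whether a marker is present. Differences are given as double-deficient minus ApoE-deficient. Tests were made with limma over all 22180 genes with Benjamini-Hochberg adjustment (threshold 0.05), and the p-values measure only the spread between these samples. In such bulk RNA, fewer T cells and less RNA per T cell cannot be told apart.

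A T cell recognises antigen through a receptor whose variable chains are held in the membrane by the CD3 chains, and these carry the tyrosine motifs that start the signal. CD4 and CD8 bind the presenting molecule and bring the kinase Lck to the complex, ZAP-70 then phosphorylates the adaptor LAT, and protein kinase C theta and related enzymes pass the signal on. In the atherosclerotic aorta T cells are found in the plaque, in the adventitia and in lymphoid aggregates around the vessel. LTbR is a receptor of stromal and myeloid cells for lymphotoxin and LIGHT made by lymphocytes, and it is required for lymph nodes to form and for the thymic medulla to be ordered. Ltbr itself is not a member of the list.

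Promoters of 5 members are shown, chosen after their values were seen, because the receptor chain genes Cd3g, Cd3d and Cd3e, the co-receptor gene Cd8a and the adaptor gene Lat were among the members with the largest differences in aorta. Each line gives the 250 bases before the start of the gene in the RefSeq windows of build GRCm38.p6, 5′ to 3′ on the gene's own strand. Cd3g lies on the minus strand at chr9:44980432-44980681 and Cd3d on the plus strand at chr9:44981536-44981785, so the pair is read in opposite directions from neighbouring starts. Cd3e lies on the minus strand at chr9:45009612-45009861, Lat on the minus strand at chr7:126369569-126369818 and Cd8a on the plus strand at chr6:71373177-71373426. Capitals mark matches on either strand to AGGAAG, the core bound by ETS factors, to AGATAA, a motif of GATA factors, to CTTTGA, a motif of TCF and LEF factors, or to TGTGGT, a motif of RUNX factors.
Cd3g: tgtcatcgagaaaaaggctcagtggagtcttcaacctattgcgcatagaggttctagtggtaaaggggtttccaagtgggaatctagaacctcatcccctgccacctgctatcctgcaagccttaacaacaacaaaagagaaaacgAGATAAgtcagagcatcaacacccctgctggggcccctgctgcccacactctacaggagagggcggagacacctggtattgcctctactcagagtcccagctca
Cd3d: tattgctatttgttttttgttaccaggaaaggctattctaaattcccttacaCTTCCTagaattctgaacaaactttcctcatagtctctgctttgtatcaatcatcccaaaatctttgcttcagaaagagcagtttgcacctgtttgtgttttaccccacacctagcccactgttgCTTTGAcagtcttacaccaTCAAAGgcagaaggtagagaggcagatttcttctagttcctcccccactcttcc
Cd3e: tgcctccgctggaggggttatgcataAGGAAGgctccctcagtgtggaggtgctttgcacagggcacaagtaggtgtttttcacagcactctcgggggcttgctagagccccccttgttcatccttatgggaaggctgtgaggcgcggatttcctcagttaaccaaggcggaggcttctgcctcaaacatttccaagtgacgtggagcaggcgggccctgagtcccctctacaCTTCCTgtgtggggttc
Lat: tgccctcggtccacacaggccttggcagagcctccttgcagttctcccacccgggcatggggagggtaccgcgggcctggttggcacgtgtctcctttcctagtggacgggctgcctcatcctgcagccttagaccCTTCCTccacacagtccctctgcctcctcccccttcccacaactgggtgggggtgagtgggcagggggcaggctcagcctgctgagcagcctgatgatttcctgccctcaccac
Cd8a: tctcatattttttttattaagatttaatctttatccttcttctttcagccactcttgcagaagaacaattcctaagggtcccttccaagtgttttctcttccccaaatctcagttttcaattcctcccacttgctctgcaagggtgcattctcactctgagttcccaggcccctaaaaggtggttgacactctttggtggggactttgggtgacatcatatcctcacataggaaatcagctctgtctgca

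The Cd3g stretch holds 1 match to the GATA letters, from 104 to 99 bases before the start. The Cd3d stretch holds 1 match to the ETS letters on the opposite strand and 2 to the TCF/LEF letters, 1 on each strand. Cd3e has 2 matches to the ETS letters, the nearer of them ending 12 bases before the start, Lat has 1, and Cd8a has none of the 4 motifs in these 250 bases. Windows were found for 18 of the 30 measured members, 25 windows in all because several genes have more than 1 start. The ETS letters were in 12 of these 25 windows and in 29.5% of all 32851 windows of the same length. For the TCF/LEF letters the counts were 6 of 25 and 13.8%, for the RUNX letters 4 of 25 and 4614 of the 32851, for the GATA letters 3 of 25 and 9.99%, and for the E-box CANNTG, which is not capitalised above, 19 of 25 and 66.2%. The member genes with the ETS letters were Cd3d, Cd3e, Cd5, Ctla4, Foxp3, Il7r, Lat, Lef1, Prkcq, Txk and Zap70. These matches describe letters in a window and say nothing about binding.

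Ltbr, the gene targeted in the double-deficient mice, was lower in all of their arrays. In aorta it stood at -0.98, -1.10, -1.29 and -0.49 in the 4 double-deficient arrays and at 0.63, 0.49, 0.70 and 0.89 in the 4 ApoE-deficient arrays, a difference of -1.64 (SE 0.17). In CD115+ cells it stood at -0.07, -0.62 and -0.44 against 0.55, 0.07 and 0.40, a difference of -0.72 (SE 0.18). The groups did not overlap in either tissue, although the limma adjusted p over all genes was 0.0679 in aorta and 0.976 in CD115+ cells. Where the deletion lies relative to the probe set is not given in the sources used here. Ltbr is on chromosome 6 with 4 members, and none of them is among the 30 annotated genes on either side of it. Cd4 is 34 genes away, Cd69 119, Cd8a 963 and Cd8b1 964. The width of 30 genes was a choice and Cd4 lies just beyond it. An effect of lying near Ltbr was not tested for any member.

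Single arrays stood apart and are named here before the results. Among the ApoE-deficient aortas, replicate 3 was the lowest of the 4 for 24 of the 30 members. It lay above every double-deficient array for only 8 members (Bcl11b, Cd3d, Cd3e, Cd4, Cd8a, Ets1, Gata3 and Lef1) and below the double-deficient median for 12, whereas replicates 1, 2 and 4 lay above every double-deficient array for 27, 24 and 22 members. Among the double-deficient CD115+ preparations, replicate 2 was the highest of the 3 for 24 of the 30 members. The mean of the 30 members per array shows the same 2 arrays. It was 0.81, 0.89, -0.06 and 0.50 in ApoE-deficient aortas 1 to 4 and -0.13, -0.14, -0.49 and -0.50 in the double-deficient ones, and in CD115+ cells it was 0.01, 0.50 and 0.19 in the double-deficient preparations against -0.0035, -0.19 and -0.18.

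**Figure D1:**
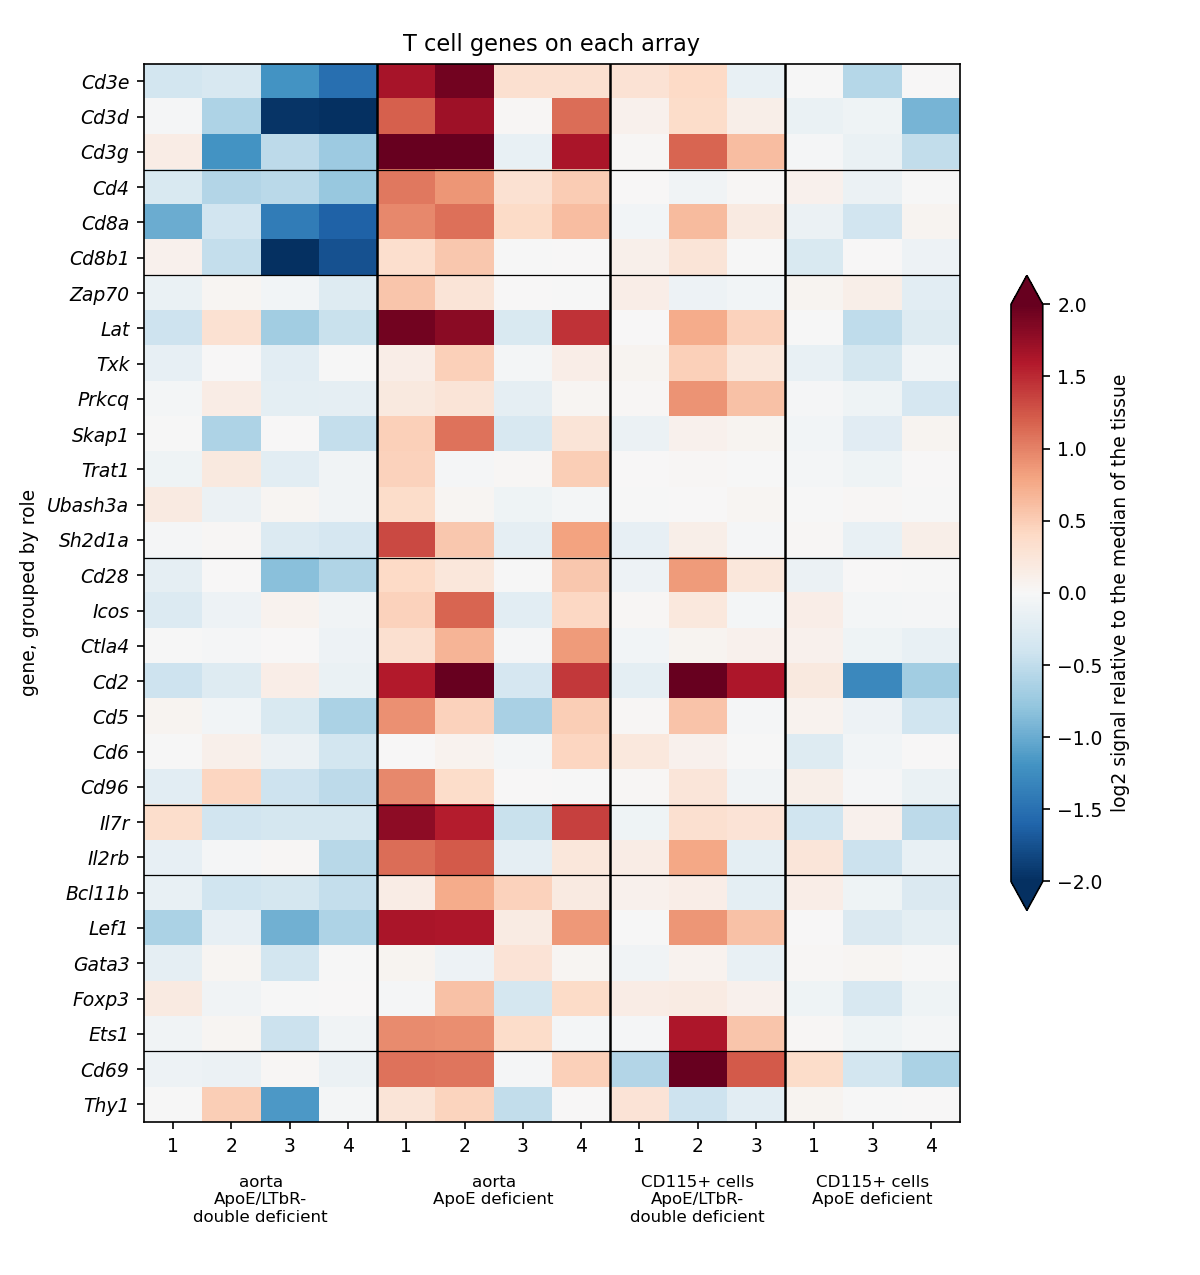
Log2 value of each measured member (rows, ordered by role) in each of the 14 arrays (columns, by tissue and genotype), relative to the gene's median over the arrays of its tissue. Colour is the value, with values beyond the scale in its end colours. ApoE-deficient aortas 1, 2 and 4 are above the middle for most members, ApoE-deficient aorta 3 is not, and double-deficient CD115+ preparation 2 is the highest of its group for 24 of 30 members.

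In the aorta the 30 members were lower on average in double-deficient mice. The difference was negative for 30 of 30 members, against 47.2% of all genes, and its median was -0.68 against 0.01 over all genes. An unadjusted limma p under 0.05 was reached by 17 members in the lower direction and by 0 in the higher direction, where 3.81% and 3.91% of all genes did so. The groups did not overlap for 6 members, all lower (Cd3e, Cd3d, Cd4, Cd8a, Bcl11b and Lef1), and none higher, against 2.11% and 2.19% of all genes, and each had an exact two-sided permutation p of 0.0286, the smallest that 4 arrays against 4 can give. No member had a limma adjusted p under 0.05, a threshold that 1 gene in all (Ly6d, not a member), 0.00451%, passed in the lower direction. Without ApoE-deficient aorta 3 it was passed by 6 members (Cd2, Cd3g, Cd4, Il7r, Lat and Lef1) and by 0.334% of all genes, with a median of -0.82 and 19 members without overlap, lower, as were 4.97% of all genes in that fit. Without ApoE-deficient aorta 1, 11 members were lower at an unadjusted limma p under 0.05, as were 3.35% of all genes.

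The CD3 chains, which anchor and signal for the antigen receptor, had the largest aorta differences among the members, with a median of -2.17 over the 3 genes. Cd3e stood at -0.37, -0.32, -1.19 and -1.51 in double-deficient aortas 1 to 4 and at 1.64, 1.93, 0.32 and 0.33 in ApoE-deficient aortas 1 to 4. All 4 double-deficient values were below all 4 others, with ApoE-deficient arrays 1 and 2 far above the remaining 2. The difference was -1.90 (SE 0.46, limma adjusted p 0.460). Cd3d stood at -0.02, -0.62, -1.96 and -2.04 against 1.19, 1.70, 0.02 and 1.12. Its groups met near 0, where double-deficient array 1 and ApoE-deficient array 3 lay, and double-deficient arrays 3 and 4 were far below the other 2. Here the difference was -2.17 (SE 0.54, limma adjusted p 0.461). Cd3g stood at 0.14, -1.20, -0.52 and -0.72 against 2.17, 2.74, -0.14 and 1.63, which overlap because ApoE-deficient array 3 was below double-deficient array 1. The Cd3g difference was also -2.17 (SE 0.60, limma adjusted p 0.466).

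The co-receptor genes had a median aorta difference of -1.38. Cd4, which marks helper and regulatory T cells and is also made by some dendritic cells, had the smallest p of the members and rank 10 among all genes. It stood at -0.31, -0.59, -0.54 and -0.76 in double-deficient aortas and at 1.05, 0.89, 0.31 and 0.51 in ApoE-deficient aortas. The groups were apart in every array, with a difference of -1.24 (SE 0.18, limma adjusted p 0.266). Cd8a, which marks cytotoxic T cells, was close behind with rank 11. Its values were -0.996, -0.38, -1.39 and -1.61 against 0.96, 1.10, 0.38 and 0.62, again with no overlap, and differed by -1.86 (SE 0.28, limma adjusted p 0.286). Both tissues were also fitted together, so that their spread was pooled. Cd4 and Cd8a then passed the threshold, with limma adjusted p 0.00826 for Cd4 and 0.0224 for Cd8a, as did 19 of all genes (0.0857%). The SDs of Cd4 were smaller in CD115+ cells (0.05 and 0.10) than in aorta (0.19 and 0.34). Its SE was 0.146 in the pooled fit, so that fit is not a stricter test of the aorta. Cd8b1, the second chain of CD8 in conventional T cells, stood at 0.08, -0.48, -2.49 and -1.74 against 0.34, 0.54, -0.01 and 0.01. Double-deficient arrays 3 and 4 were far below the other 6, array 2 was below the ApoE-deficient group by less, and array 1 overlapped it. Cd8b1 differed by -1.38 (SE 0.53, unadjusted p 0.0315 by limma).

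Double-deficient aortas 3 and 4 were also the lowest of their group in the mean of thymocyte and of platelet markers. Dntt, the terminal transferase of immature lymphocytes, stood at -0.82, -0.24, -2.14 and -2.10 in double-deficient aortas and between 0.24 and 0.56 in ApoE-deficient ones. Satb1, a chromatin organiser of thymocytes, stood at -0.28, -0.09, -0.94 and -1.48, while for Themis, a signalling protein of thymocytes and T cells, array 2 lay with arrays 3 and 4 (-0.04, -0.74, -0.82 and -1.16). The mean of the 6 measured thymocyte markers was -0.12, -0.09, -0.59 and -0.68 in double-deficient aortas 1 to 4 and between 0.12 and 0.28 in ApoE-deficient ones, with all 6 negative in difference. The 4 platelet markers were likewise all negative, with means of 0.23, 0.04, -1.06 and -0.58 in double-deficient aortas and between -0.12 and 0.16 in ApoE-deficient ones. A negative difference was found for 47.2% of all genes. The part of either list in the member differences was not tested.

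**Figure D2:**
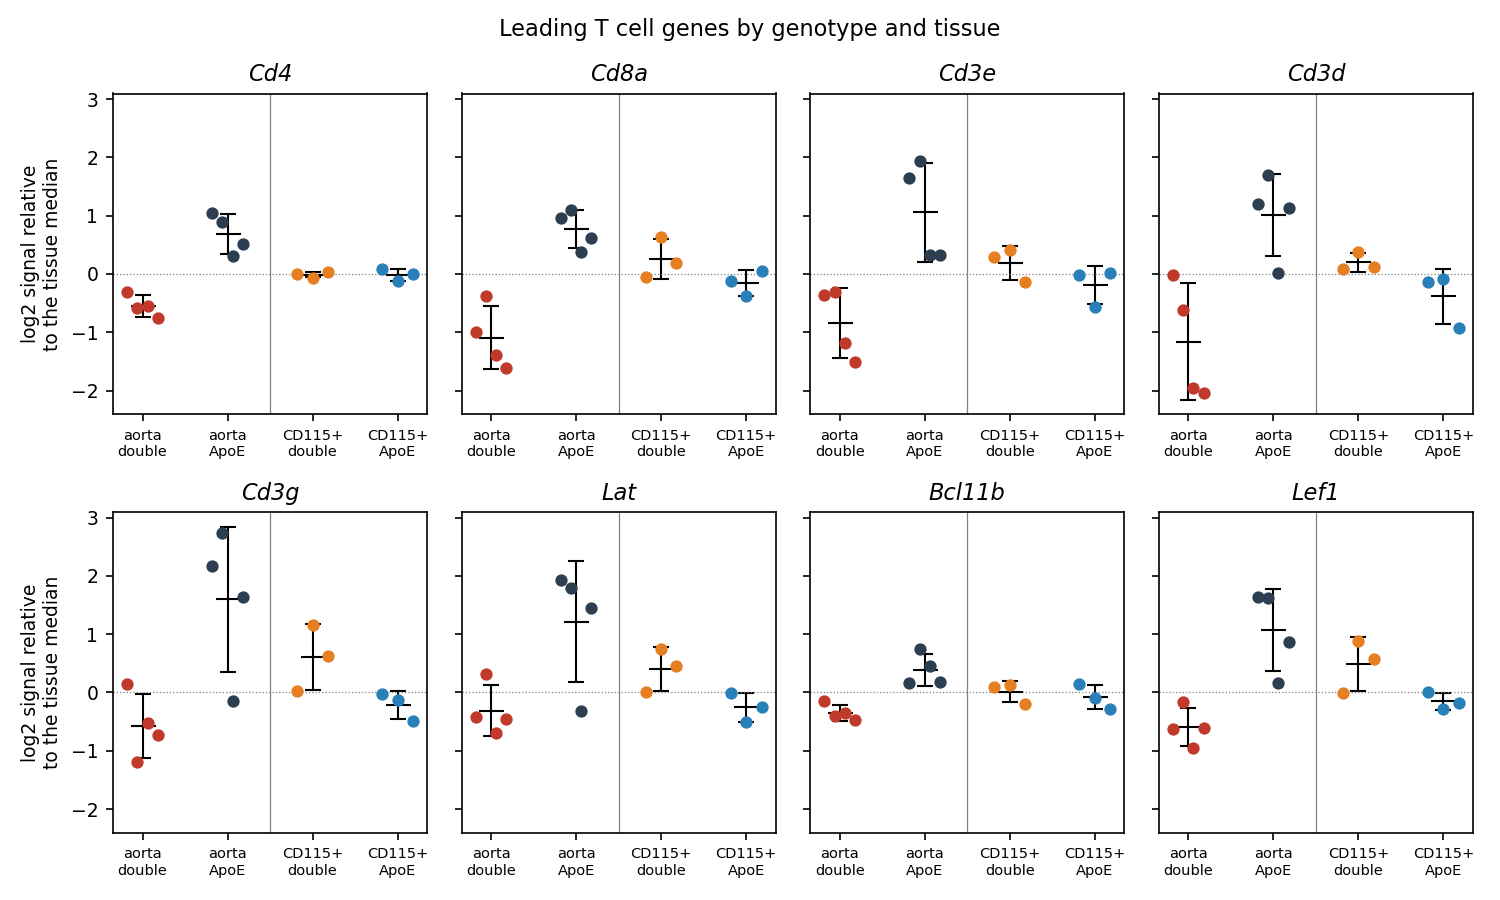
Log2 values of leading members by array (points) with group mean and SD (bars), in aorta (4 double-deficient and 4 ApoE-deficient arrays) and CD115+ cells (3 and 3), relative to the gene's median in the tissue. In aorta Cd4 and Cd8a are lower in every double-deficient array than in any ApoE-deficient array, while Cd4 in CD115+ cells lies between -0.12 and 0.09 in both groups.

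Among the genes of the first signalling steps the aorta differences were smaller, with a median of -0.29 over 8 genes. Lat, the membrane adaptor on which the receptor complex assembles its downstream enzymes, was the exception. It stood at -0.42, 0.31, -0.69 and -0.45 in double-deficient aortas and at 1.92, 1.80, -0.31 and 1.44 in ApoE-deficient aortas. ApoE-deficient arrays 1, 2 and 4 were far above all others, and array 3 was below double-deficient array 2. The difference was -1.53 (SE 0.49, limma adjusted p 0.536). Sh2d1a, which encodes the adaptor SAP of the SLAM receptors, differed by -0.77 (SE 0.29) and also had an unadjusted limma p under 0.05. The other 6 did not reach it. Skap1, an adaptor that couples the receptor to integrins, differed by -0.64 (SE 0.29), the kinase gene Zap70 by -0.30 (SE 0.14), the adaptor gene Trat1 by -0.29 (SE 0.15), the Tec family kinase gene Txk by -0.27 (SE 0.12), Prkcq, which encodes protein kinase C theta, by -0.15 (SE 0.12), and Ubash3a, a negative regulator of receptor signalling, by -0.06 (SE 0.12).

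The costimulatory and adhesion receptors had a median aorta difference of -0.54 over 7 genes. Cd2, an adhesion receptor of lymphocytes not confined to T cells, stood at -0.42, -0.26, 0.14 and -0.14 in double-deficient aortas. In ApoE-deficient aortas it stood at 1.59, 2.39, -0.34 and 1.41, a difference of -1.43 (SE 0.51, limma adjusted p 0.564). ApoE-deficient array 3 was below 3 of the 4 double-deficient arrays, and the other 3 ApoE-deficient arrays were far above them. Cd28, the main costimulatory receptor, stood at -0.17, 0.0031, -0.83 and -0.60 against 0.39, 0.23, -0.0031 and 0.54, with a touching overlap near 0 and a difference of -0.69 (SE 0.20, limma adjusted p 0.486). Ctla4, the inhibitory counterpart of Cd28, differed by -0.49 (SE 0.18) at an unadjusted limma p of 0.0256. Icos, a costimulator of activated and follicular helper T cells, differed by -0.54 (SE 0.26), Cd5, a brake on receptor signalling, by -0.54 (SE 0.32), Cd96, a receptor of T and NK cells, by -0.51 (SE 0.28), and Cd6, a relative of Cd5, by -0.22 (SE 0.14), none with an unadjusted p under 0.05.

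Both cytokine receptor genes were lower on average in double-deficient aortas. Il7r, the receptor chain that naive and memory T cells need for survival, stood at 0.35, -0.39, -0.36 and -0.35 against 1.79, 1.57, -0.45 and 1.36, and differed by -1.25 (SE 0.48, unadjusted p 0.0310 by limma). The lowest of the 8 arrays was ApoE-deficient array 3, and double-deficient array 1 stood above the other 3 of its group. Il2rb, the chain shared by the receptors for interleukins 2 and 15, differed by -0.78 (SE 0.32, unadjusted p 0.0430 by limma).

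The 5 transcription factor genes of the T cell lineage had aorta differences from -1.66 to -0.12. Bcl11b, which commits progenitors to the T lineage, stood at -0.15, -0.41, -0.36 and -0.47 in double-deficient aortas and at 0.15, 0.74, 0.46 and 0.19 in ApoE-deficient aortas. The groups did not overlap, and here ApoE-deficient array 3 was exceeded only by array 2, and the difference was -0.73 (SE 0.14, limma adjusted p 0.379). Lef1, a factor of naive T cells and their precursors, stood at -0.63, -0.16, -0.95 and -0.62 against 1.64, 1.62, 0.16 and 0.86. It was also free of overlap, with a difference of -1.66 (SE 0.34, limma adjusted p 0.379). Ets1, which is active in T, B and NK cells, stood at -0.07, 0.05, -0.44 and -0.07 against 0.95, 0.93, 0.36 and -0.05, so that only ApoE-deficient array 4 overlapped, and differed by -0.68 (SE 0.23, limma adjusted p 0.556). Gata3, the factor of T helper 2 cells, differed by -0.19 (SE 0.12), and Foxp3, the factor of regulatory T cells, by -0.12 with a 95% interval from -0.57 to 0.33.

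Cd69, an early activation marker also borne by B cells, stood at -0.09, -0.12, 0.02 and -0.12 in double-deficient aortas and at 1.08, 1.06, -0.02 and 0.48 in ApoE-deficient aortas. The double-deficient values were close together, and ApoE-deficient array 3 lay among them. Cd69 differed by -0.73 (SE 0.24, limma adjusted p 0.536). Thy1, a surface protein of mouse T cells that fibroblasts and neurons also make, differed by -0.23 with a 95% interval from -1.05 to 0.59. Of 6 markers of fibroblasts and nerve measured beside it, 5 were higher on average in double-deficient aortas, with Prph, a neuronal filament, at 0.75 (SE 0.19). Over all genes 47.2% of the differences were negative.

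**Figure D3:**
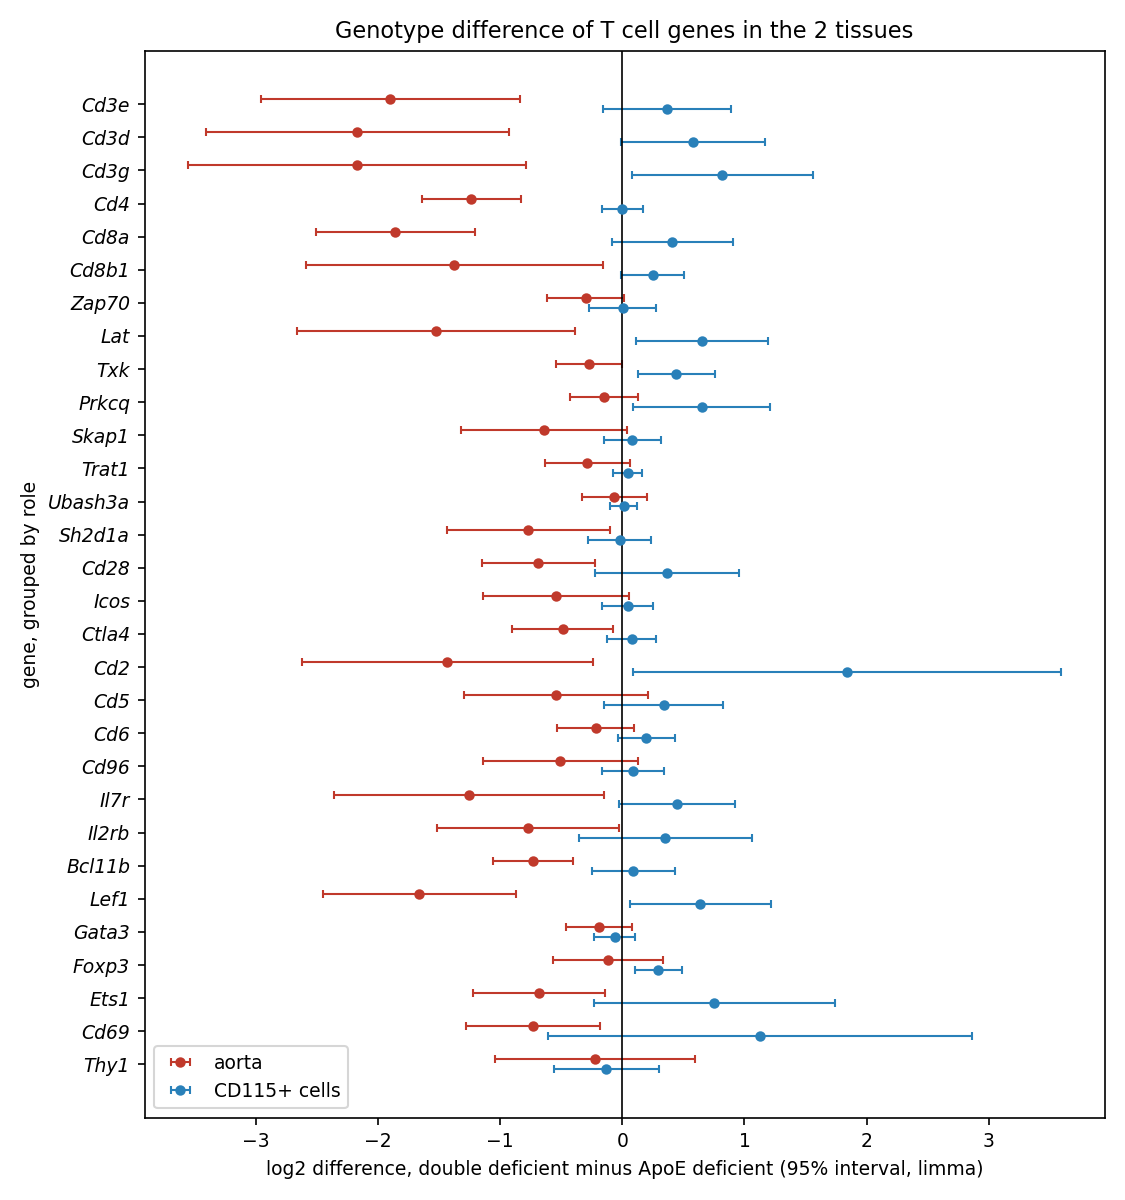
Difference between genotypes (double-deficient minus ApoE-deficient, log2) of each measured member in aorta and in CD115+ cells, with 95% intervals from limma. The aorta differences are negative for 30 of 30 members and reach -2.17 for Cd3d and Cd3g, and the CD115+ differences are positive for 27 of 30, with Cd2 the largest at 1.84.

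Other genes of the pathway were lower in double-deficient aortas beside the members. Of 35 further genes of T cell receptor signalling and T cell identity, 34 had a negative difference, 19 of them at an unadjusted limma p under 0.05 and 0 in the higher direction, with a median of -0.64. Over all genes, 47.2% were negative, 3.81% reached that p in the lower direction and 3.91% in the higher. Sit1, an inhibitory transmembrane adaptor, stood between -0.32 and -0.26 in double-deficient aortas and between 0.26 and 1.13 in ApoE-deficient ones, a difference of -0.93 (SE 0.17, limma adjusted p 0.319). The GTPase genes Gimap7 and Gimap5, which act in lymphocyte survival, differed by -1.63 (SE 0.36) and -0.90 (SE 0.21), and Themis by -1.06 (SE 0.27), each without overlap of the groups. Among 19 other costimulatory and inhibitory receptors and ligands, 15 were negative and 6 had an unadjusted limma p under 0.05. These included Cd27, a costimulator of the tumour necrosis factor receptor family, at -1.20 (SE 0.27), which is 6 annotated genes from Ltbr. Icosl, the ligand of ICOS, differed by -0.97 (SE 0.29), and Slamf6, a receptor that signals through SAP, by -0.93 (SE 0.31).

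For trafficking receptors 12 of 13 aorta differences were negative, with 5 at an unadjusted limma p under 0.05. The shares of all genes to set beside these lists were 47.2% negative, 3.81% lower at that p and 3.91% higher. Ccr9, the gut and thymus homing receptor, differed by -0.63 (SE 0.13) without overlap, Cxcr5, which leads cells into follicles, by -1.17 (SE 0.38), Ccr6 by -1.24 (SE 0.46) and Ccr7, the receptor for entry into lymph nodes, by -1.08 (SE 0.44). Of 18 further transcription factor genes 13 were negative and 4 reached an unadjusted limma p under 0.05, namely Ikzf1 at -1.18 (SE 0.34), Satb1 at -0.91 (SE 0.29), Ikzf3 at -1.55 (SE 0.49) and Stat4 at -1.12 (SE 0.39). Cytokine and effector genes were less one-sided. Of these 18, 11 were negative, 3 reached an unadjusted limma p under 0.05 in the lower and 1 in the higher direction, and the median was -0.03. Ltb, which encodes lymphotoxin beta, a subunit of the ligand of LTbR, was at -0.41, -0.34, -0.22 and -0.13 in double-deficient aortas and at 3.55, 3.01, 0.13 and 2.87 in ApoE-deficient ones, a difference of -2.66 (SE 0.67, limma adjusted p 0.461). In the family of the common gamma chain receptors 6 of 8 were negative and 1, Il2ra at -0.56 (SE 0.18), had an unadjusted limma p under 0.05.

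Markers of other cell types differed in aorta together with the members. Of all genes, 47.2% had a negative difference and 3.81% were lower at an unadjusted limma p under 0.05. All 9 measured B cell markers were negative, 8 of them at an unadjusted limma p under 0.05, with a median of -1.72. Their mean per array was 2.28, 2.33, -0.17 and 1.50 in ApoE-deficient aortas 1 to 4 and between -0.44 and -0.14 in double-deficient ones, so ApoE-deficient array 3 was low in B cell markers as in the members. The 5 measured markers of lymph node venules and stroma were also all negative, with means of 1.07, 0.93, -0.21 and 1.09 against -0.08, -0.56, -0.45 and -0.78. Glycam1, a ligand for lymphocyte homing made by high endothelial venules, had the largest difference, -4.06 (SE 0.69, limma adjusted p 0.296), from values of 3.89, 3.86, 0.70 and 3.13 against -1.03, -1.07, -1.84 and -0.70. All 8 NK cell markers were negative, 3 of them at an unadjusted limma p under 0.05. Against these, 6 of 6 smooth muscle markers were positive with a median of 0.30, and monocyte and macrophage markers were divided, 5 negative and 6 positive. Whether B cell, NK cell, thymocyte or lymph node RNA has a part in the member differences was not tested, and centred values do not show which of these markers were at background.

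**Figure D4:**
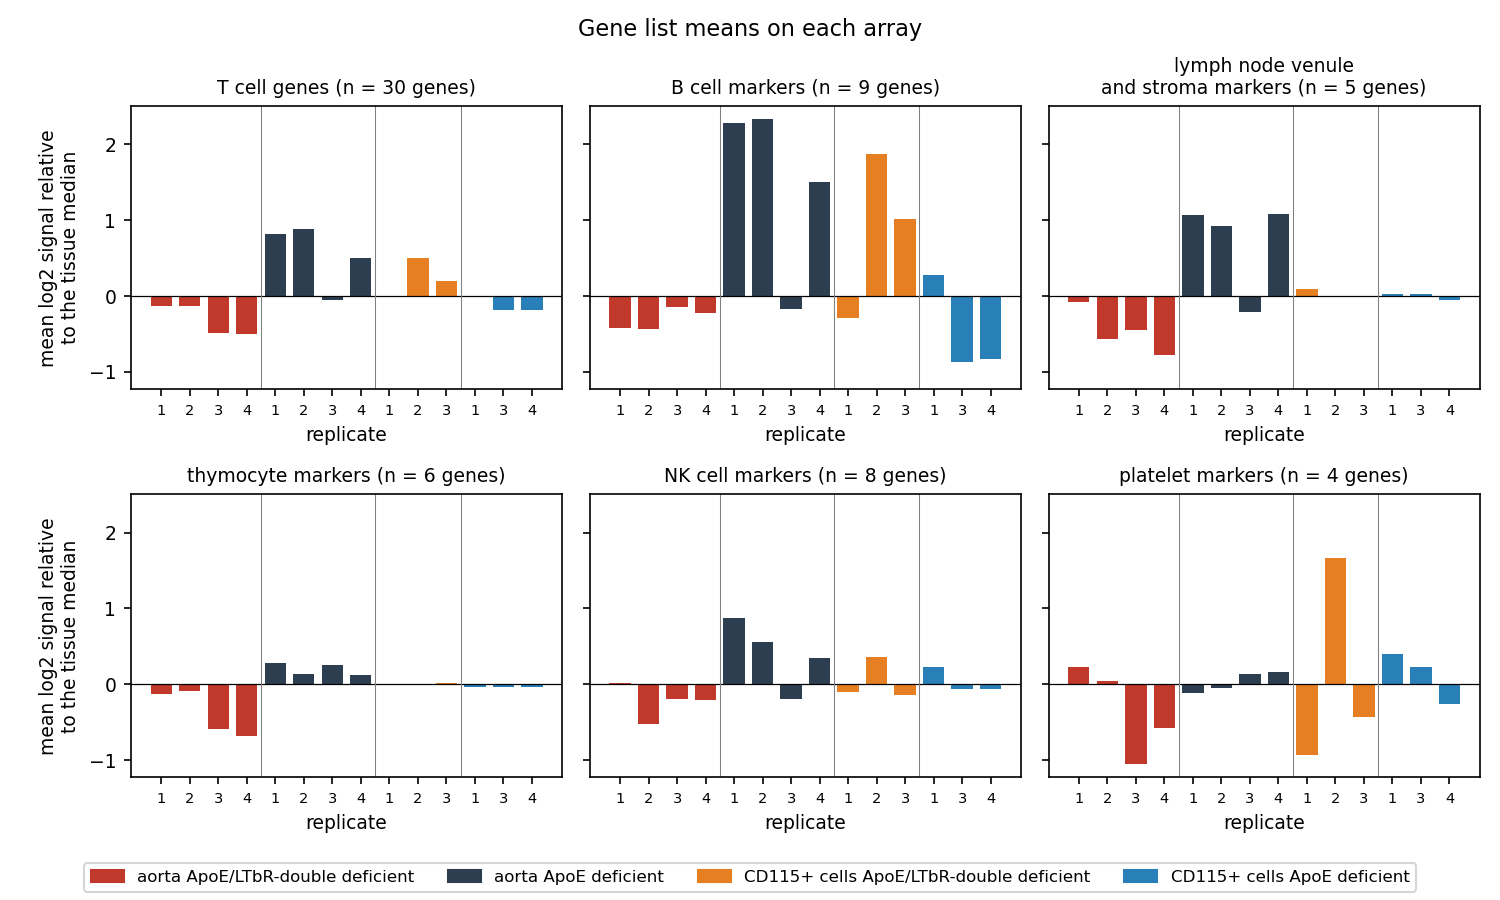
Mean log2 value per array of the 30 members and of marker lists for other cell types, relative to each gene's median in the tissue (bars, 1 per array, grouped by genotype and tissue). In aorta the member bars and the B cell bars are both highest in ApoE-deficient arrays 1, 2 and 4, and in CD115+ cells both are highest in double-deficient preparation 2.

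In CD115+ blood cells most of the members were on average higher, not lower, in the double-deficient preparations, with a median smaller in size than in aorta. The difference was positive for 27 of 30 members, against 44.7% of all genes, with a median of 0.32 against -0.01 over all genes. An unadjusted limma p under 0.05 was reached by 7 members in the higher direction and by 0 in the lower direction, where 2.06% and 2.33% of all genes did so. The groups did not overlap for 6 members, all higher (Cd3d, Cd3g, Lat, Foxp3, Prkcq and Txk), and none lower, against 3.93% and 5.23% of all genes. No gene of the whole array had a limma adjusted p under 0.05 in this tissue, and each member's was 0.976 or above. Leaving out double-deficient preparation 2 brought the median to 0.16 and the count higher at an unadjusted limma p under 0.05 to 2 (1.62% of all genes). That count was 4 without double-deficient preparation 3 (1.77%), 3 without ApoE-deficient preparation 4 (1.32%) and 12 without double-deficient preparation 1, where the share of all genes was itself 7.27%. Both pooled preparations were ApoE-deficient and no double-deficient one was pooled, so pooling and genotype cannot be fully told apart in this tissue. Without both pooled preparations only 1 ApoE-deficient array remained. The median of the member differences was then 0.21, and 21 of 30 were positive.

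The 6 members with the smallest p in CD115+ cells covered the receptor, its signalling and 2 transcription factors. Foxp3 stood at 0.15, 0.17 and 0.08 in double-deficient preparations 1 to 3 and at -0.09, -0.31 and -0.08 in ApoE-deficient preparations 1, 3 and 4. The groups were apart by a small distance, with a difference of 0.29 (SE 0.08, unadjusted p 0.00973 by limma). Txk stood at 0.06, 0.48 and 0.23 against -0.15, -0.35 and -0.06, a difference of 0.44 (SE 0.13), and Lat at 0.0036, 0.75 and 0.46 against -0.0036, -0.50 and -0.25, a difference of 0.65 (SE 0.22). In both genes preparation 1 of the double-deficient group lay next to the ApoE-deficient values and preparation 2 was highest. Prkcq showed the same order, at 0.03, 0.89 and 0.58 against -0.03, -0.09 and -0.34, with a difference of 0.65 (SE 0.23). Cd3g stood at 0.02, 1.16 and 0.62 against -0.02, -0.13 and -0.49, a difference of 0.82 (SE 0.30). Lef1 stood at -0.01, 0.89 and 0.58 against 0.01, -0.28 and -0.19, a difference of 0.64 (SE 0.23), with a small overlap between the preparations numbered 1. With 3 preparations against 3, the exact two-sided permutation test cannot go below 0.10, which all members without overlap reached.

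By role, the CD115+ medians were 0.58 for the CD3 chains, 0.25 for the co-receptors, 0.06 for the 8 signalling genes, 0.19 for the costimulatory and adhesion receptors, 0.40 for the cytokine receptors and 0.29 for the transcription factors. The largest difference among the members was that of Cd2, 1.84 (SE 0.71, unadjusted p 0.0424 by limma). Its values were -0.19, 2.29 and 1.62 against 0.19, -1.29 and -0.70. Double-deficient preparation 1 and ApoE-deficient preparation 1 lay close together in the middle, and the others were wide apart. Cd69 differed by 1.13 (SE 0.70) and Ets1 by 0.75 (SE 0.40), both highest in double-deficient preparation 2. Cd3d differed by 0.58 (SE 0.24), Il7r by 0.44 (SE 0.19), Cd8a by 0.41 (SE 0.20), Cd3e by 0.37 (SE 0.21), Cd28 by 0.36 (SE 0.24), Il2rb by 0.35 (SE 0.29), Cd5 by 0.34 (SE 0.20), Cd8b1 by 0.25 (SE 0.10) and Cd6 by 0.19 (SE 0.10). The 6 values of Cd4 lay between -0.12 and 0.09, and the 95% interval of the difference ran from -0.17 to 0.17. Zap70, Ubash3a, Trat1, Icos, Ctla4, Skap1, Cd96 and Bcl11b lay between 0.0027 and 0.09, and Gata3, Sh2d1a and Thy1 were negative at -0.06, -0.02 and -0.13.

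Other lists of T cell genes differed in how many members were higher on average in the double-deficient CD115+ preparations. Of all genes, 44.7% had a positive difference. An unadjusted limma p under 0.05 was reached by 2.06% of all genes in the higher and 2.33% in the lower direction. Of the 35 further genes of receptor signalling and T cell identity, 31 were positive, 1 of them at an unadjusted limma p under 0.05, with a median of 0.21. Gimap3 differed by 0.98 (SE 0.32). Positive differences were found for 10 of 13 trafficking receptors, 6 of 8 common gamma chain receptor genes, 13 of 19 costimulatory and inhibitory genes, 11 of 18 transcription factor genes and 10 of 18 cytokine and effector genes. Among trafficking receptors, S1pr1, which lets lymphocytes leave lymphoid organs, differed by 0.81 (SE 0.26) without overlap and Ccr7 by 1.35 (SE 0.46). Il9r, the receptor for interleukin 9, differed by 1.06 (SE 0.23) from values of 0.23, 1.00 and 1.02 against -0.23, -0.48 and -0.23, and Bach2, a repressor that keeps T and B cells undifferentiated, by 1.42 (SE 0.43). All 9 B cell markers were positive here, with a median of 1.44, and 1 of them, Blk at 1.44 (SE 0.46), had an unadjusted limma p under 0.05. Their mean per array was -0.29, 1.88 and 1.02 in the double-deficient preparations and 0.28, -0.87 and -0.82 in the ApoE-deficient ones, in the same order within each genotype as Cd2. NK cell markers were divided, 4 up and 4 down in sign, with a median of -0.0003. Of 11 monocyte and macrophage markers 7 were negative, 2 of them at an unadjusted limma p under 0.05, namely Fcgr1 at -1.07 (SE 0.32) and Ly6c2 at -1.30 (SE 0.51). Platelet markers differed widely between preparations, with means of -0.93, 1.67 and -0.44 against 0.40, 0.23 and -0.27. None of the 6 smooth muscle, 5 adipocyte or 6 fibroblast and nerve markers had a positive difference. None of them reached an unadjusted limma p under 0.05 either. The smooth muscle means were 0.25, -0.32 and -0.29 in the double-deficient preparations against -0.03, 0.15 and 0.08. The share of B cells, T cells and monocytes in each preparation was not measured, and the part of these other cells in the member differences was not tested.

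The genotype difference in aorta was set against that in CD115+ cells in 1 limma fit of all 14 arrays. The difference between tissues (aorta minus CD115+) was negative for 30 of 30 members, against 45.3% of all genes, with a median of -0.85. It had an unadjusted limma p under 0.05 for 19 members in the lower direction and for 0 in the higher direction, where 3.49% and 3.41% of all genes did so. No gene of the array passed an adjusted p of 0.05 in this contrast. Among the members Cd8a came nearest, at -2.27 (SE 0.39, limma adjusted p 0.228). Cd4 followed at -1.24 (SE 0.22, limma adjusted p 0.263) and Lef1 at -2.30 (SE 0.47, limma adjusted p 0.524). The 2 co-receptors reached this in different ways. Cd8a differed by -1.86 in aorta and 0.41 in CD115+ cells, and Cd4 by -1.24 in aorta and 0.0005 in CD115+ cells. The largest contrasts among the members were those of Cd2 (-3.27, SE 0.92), Cd3g (-2.99, SE 0.79) and Cd3d (-2.75, SE 0.70). These genes differed in opposite directions in the 2 tissues. Without ApoE-deficient aorta 3 the adjusted threshold was passed by 5 members (Cd3g, Cd4, Il7r, Lat and Lef1) and by 0.135% of all genes, and without double-deficient CD115+ preparation 1 by Cd8a alone among the members and by 0.261% of all genes.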

How the data were processed

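The authors deposited log values per probe set for 14 arrays, which were read as log2. The log base, array normalization, probe summarisation and software were not given in the sources used here. Each probe set was centred on its median within each tissue (within 5e-07 of 0). Of 33793 probe sets, 23521 had 1 symbol in the platform annotation, 1814 several and 8458 none listed; those with 1 symbol were averaged per gene, giving 22180 genes. Groups and replicate numbers came from the titles. Each tissue was fitted on its own with limma 3.58.1 (lmFit, eBayes) in R 4.3.3, with Benjamini-Hochberg adjustment over all genes at 0.05, and the tissues were compared in 1 fit of 4 group means. Single members were also tested by an exact two-sided permutation over samples, whose smallest p is 0.0286 for 4 against 4 and 0.10 for 3 against 3. A filter on mean level had been planned, but centred values hold no level, so every gene was kept. The number of arrays limits the precision. The code was tested on simulated data. In the main fits replicate numbers were not used to pair the samples. Deviations of arrays with the same number correlated at 0.17, -0.15, -0.14 and 0.06 in aorta and at -0.47 and -0.29 in CD115+ cells. So few correlations cannot decide whether arrays of the same number belong together.

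The members, the other gene lists, the tests and the rule for naming genes were chosen with earlier results of these data known. That rule names Ltbr and every member, gives array values for the 12 members of smallest p in aorta and the 6 in CD115+ cells (Cd8b1 and Il7r in aorta, Cd2 in CD115+ cells and genes of other lists were added after their values were seen), and names up to 4 genes of smallest p per other list and tissue. Alternatives were the replicate block, a variance trend, robust and array-weighted fits, other probe set choices, array centring, quantile normalization, 1 fit of both tissues, leaving out the pooled preparations and leaving out each replicate. Promoter windows came from RefSeq, GRCm38.p6. Members with no entry there were Cd2, Cd28, Cd4, Cd6, Cd69, Cd8b1, Ets1, Icos, Il2rb, Sh2d1a, Skap1 and Thy1.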

Additional observations from a re-analysis of the deposited data

Results flagged for a closer look

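Of 60 groups of 4 aorta arrays tested (30 members in 2 genotypes), 1 held an array far from the others. Il7r in double-deficient aorta replicate 1 stood at 0.35, while the other 3 arrays of that group lay between -0.39 and -0.35, so that the gap to the nearest was 0.952 of the range of the group, above the 95% critical ratio for 4 arrays. Chance alone marks about 1 group in 20 at this ratio.

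For Cd3d every double-deficient array was below every ApoE-deficient array in aorta and above every ApoE-deficient preparation in CD115+ cells. The aorta minus CD115+ difference was -2.75 (SE 0.70), and the limma test of that difference had an adjusted p of 0.585 (Benjamini-Hochberg over all genes).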

How the results depend on the processing

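The negative median in aorta, the positive median in CD115+ cells and the negative median of the difference between tissues kept their sign under every alternative run. In aorta, 2 members (Cd4 and Cd8a) passed the adjusted threshold in 1 fit of both tissues, as did 0.0857% of all genes. In CD115+ cells the replicate block compared only the preparations numbered 1 and 3, since double-deficient 2 and ApoE-deficient 4 had no partner of the same number. That fit gave a median of 0.15 and 1 member higher at an unadjusted limma p under 0.05 (0.469% of all genes). Array weights gave 11 such members (4.64%) and 1 fit of both tissues 3 (1.32%). Leaving out both pooled preparations left 1 ApoE-deficient array, and the median was then 0.21. Signs of small CD115+ differences turned. With the replicate block Bcl11b was -0.074, Zap70 -0.054, Icos -0.047, Cd96 -0.060 and Thy1 0.014. With array weights Cd4 was -0.0025, Zap70 -0.029 and Sh2d1a 0.017. Against the 1 ApoE-deficient array that was not pooled, Cd4 was -0.0995, Bcl11b -0.128, Zap70 -0.067, Ctla4 -0.064, Icos -0.062 and Cd96 -0.044. The first and last of these sets compare fewer arrays than the main fit, and the cause of the turns was not tested. Leaving out each replicate in turn, the aorta median ran from -0.82 to -0.56, members lower at an unadjusted p under 0.05 from 11 to 22 (3.03% to 5.16% of all genes), past the adjusted threshold from 0 to 6 (up to 0.334%), negative from 29 to 30 and not overlapping from 6 to 19 (3.17% to 4.97%), with 12 without double-deficient replicate 2. In CD115+ cells the median ran from 0.16 to 0.36, the unadjusted count from 2 to 12 (1.32% to 7.27%), the adjusted count stayed at 0, positive members ran from 25 to 27 and those not overlapping from 6 to 13 (7.35% to 13.0%): 13 without double-deficient replicate 1, and 11 when ApoE-deficient replicate 1 was left out. For the difference between tissues the median ran from -1.08 to -0.72, the unadjusted count from 14 to 24 (2.2% to 5.67%) and negative members from 29 to 30. The adjusted count ran from 0 to 5, with 0.135% of all genes passing in the fit that gave 5. The largest share, 0.261%, came without double-deficient CD115+ replicate 1, where Cd8a alone of the members passed. The shares of all genes given as ranges cover the same fits, and their ends need not belong to the ends of the counts. Among single genes, leaving out 1 replicate turned the sign in aorta of Thy1 (-0.449 to 0.098), Ubash3a (-0.122 to 0.032) and Foxp3 (-0.285 to 0.028), and in CD115+ cells of Cd4 (-0.052 to 0.051), Bcl11b (-0.013 to 0.199), Zap70 (-0.098 to 0.069), Icos (-0.023 to 0.0999), Cd96 (-0.0004 to 0.151), Sh2d1a (-0.099 to 0.049), Ubash3a (-0.0054 to 0.022) and Thy1 (-0.327 to 0.017). A filter on mean level was not run, since the values hold no level.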
